A study of Mus musculus with 4 samples.

Results

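The step described here leads from neuroblasts (cluster NB1) to the first immature granule cells (cluster GCimm1) of the adult mouse dentate gyrus. The members are the nuclei that the authors' cluster column assigns to NB1 or GCimm1 in the libraries of weeks 1, 2 and 4 (w1, w2 and w4), which are 5019 of the 14367 nuclei of the series. NB1 held 1492 nuclei in w1, 956 in w2 and 130 in w4, and GCimm1 held 129, 1933 and 379. In w8 NB1 had 0 nuclei and GCimm1 had 1, so w8 did not enter. All mice carried a tamoxifen-inducible Cre and the CAG floxStop-Sun1/sfGFP allele and were C57BL/6J, 6 to 8 weeks old per the methods, which do not tie this age to the injections of tamoxifen, and each library pools the left dentate gyri of 4 mice of both sexes taken 1, 2 or 4 weeks after tamoxifen. The green nuclear envelope marks the progeny of radial glia-like cells (RGL) and of any other cell in which Cre was active at induction, and sorted green nuclei were sequenced. The comparison of GCimm1 with NB1 asks which functions are gained and lost in this step. Because each library is 1 pool that holds both clusters, the pair was the library, and p-values measure the spread among 3 pools and not among animals.

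Adult-born granule cells descend from RGL through dividing progenitors (NPC) and neuroblasts, which express Dcx and migrate a short way before they settle in the granule cell layer. Young granule cells then extend a dendrite and a mossy fibre axon. GABA depolarizes them at first because they hold much chloride, and glutamatergic input comes later. Cell adhesion molecules, guidance receptors, ion channels and synaptic proteins are the effectors of these changes.

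NB1 gave 10898324 UMIs and GCimm1 13224949, with single sums between 446317 UMIs (w4 NB1) and 10945220 (w2 GCimm1). The median nucleus held 4064, 4171 and 3308.5 UMIs in NB1 of w1, w2 and w4, against 4882, 5290 and 3841 in GCimm1. Nuclei with more UMIs of Y-linked genes than of Xist and Tsix numbered 98 against 4 with the reverse in w1 GCimm1 but 710 against 593 in w1 NB1, so sex differed between the paired sums of that library. In w2 the same counts were 459 and 1381 in GCimm1 and 304 and 586 in NB1. Of the barcodes in these nuclei, 2 occurred in more than 1 library. The part of depth and sex in the results was not tested beyond the refits given in the closing section.

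The summed level of the neuroblast markers Calb2, Tac2, Elavl2, Igfbpl1, Dcx, Sox4, Sox11, Eomes and Neurod1 was 2810 to 3110 CPM (UMIs per 1000000 UMIs) in the 3 sums of NB1 and 1710 to 1970 in those of GCimm1. Of the 8 tested, 3 fell and 0 rose, and Neurod1 is listed at 0 in every sum. Calb2 and Tac2, which the study names for neuroblasts, were not called (log2 changes from NB1 to GCimm1 of -0.52 and -0.04). Calb2 was still at 65.2 to 122 CPM in GCimm1. The immature granule cell markers, among them Rgs6, Camk4, Chd5 and Prox1, were at 3460 to 3530 CPM in NB1 and 5190 to 5460 in GCimm1, and 3 of 9 rose. Rgs6, at 567 to 597 CPM in NB1 and 2280 to 2510 in GCimm1, carried most of this difference. The study names Rgs6 for neuroblasts as well, beside Calb2 and Tac2, so a marker of that stage was higher in GCimm1. Dcx, Sox11 and Igfbpl1 are in both marker lists. Dcx, the microtubule protein of migrating neurons, was shared by both clusters (479, 382 and 475 in NB1 of w1, w2 and w4, then 425, 317 and 357 in GCimm1, on the scale described below), as was Sox11 (663, 635 and 620, then 621, 570 and 539). Prox1, which specifies granule cells, had 909, 740 and 856 in NB1 and 996, 812 and 980 in GCimm1. None of these 3 genes passed the test. Only a part of the listed markers thus differed in the direction of the labels. These were Eomes, Elavl2 and Sox4 for NB1 and Rgs6, Camk4 and Chd5 for GCimm1. The study names Eomes for dividing progenitors (NPC) and finds Elavl2 and Sox4 already present there. Their higher level in NB1 is therefore not particular to neuroblasts.

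A small number of NB1 nuclei carried genes of other neurons. At least 3 UMIs of Meis2 were found in 21 NB1 nuclei of w1, 15 of w2 and 0 of w4, and in 3 GCimm1 nuclei of w2. At least 10 UMIs of Reln were found in 1 NB1 nucleus of w2 and 1 of w4. These 38 NB1 nuclei gave 1.68% of the UMIs of NB1 but 96.4% of its Meis2, 83.2% of its Erbb4, 78.9% of its Gad2 and 63.9% of its Reln UMIs. The cut-offs were set after the data were seen, and the shares of Meis2 and Reln follow from the choice of nuclei by these genes. Summed pyramidal neuron markers were at 17.9 to 109 CPM in NB1 and 8.0 to 10.7 in GCimm1, and Cajal-Retzius markers at 6.29 to 80.7 and 0 to 2.1. In NB1 of w1, w2 and w4 Meis2 alone stood at 99.0, 76.3 and 0 CPM, and Reln at 4.71, 18.8 and 58.3. The 38 nuclei also held most Gad2 UMIs of NB1, and Gad2 is in the interneuron list, so no cell type is assigned to them. Interneuron markers (298 to 361 against 249 to 314 CPM), astrocyte markers (506 to 524 against 318 to 334), oligodendrocyte markers (110 to 134 against 88.5 to 101), oligodendrocyte precursor markers (35.0 to 65.0 against 10.8 to 15.3), microglial markers (44.0 to 121 against 45.5 to 68.7) and endothelial markers (4.48 to 8.49 against 1.53 to 12.9) were present at low level in both. Progenitor markers were at 278 to 338 CPM in NB1 and 150 to 186 in GCimm1, nearly all of it Pola1 and Cdk6, while Top2a, Mki67 and Neil3 were at no more than 2.24 in any sum, and mature granule cell markers at 138 to 217 and 447 to 548, of which Grin2a alone made up 85.2 to 135 and 403 to 437, while Calb1 was at 5.19 to 17.9 and 4.57 to 18.5. When the 38 NB1 and 3 GCimm1 nuclei were left out, 31 of 1459 called genes lost their calls, and where a gene named below was among them, or moved over 1.5 times, both values are given.

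Of 12141 genes tested on the UMI sums, 902 were higher in GCimm1 (7.43% of all tested) and 563 were lower (4.64%). The counts of called members in the gene lists below are to be read beside these shares. A called gene had to differ 1.5-fold or more with an adjusted p of no more than 0.05, and adjusted p always means edgeR's quasi-likelihood test with Benjamini-Hochberg adjustment over all 12141 genes. The authors defined the clusters on the same expression values, so these p-values describe how the clusters differ. Among the called genes, 859 increases and 546 decreases had the same sign in all 3 libraries. The 6 sums were separate, with every GCimm1 sum above or below every NB1 sum, for 733 and 484. The calls rest on these same sums, and the shares over all tested genes were not taken, so both counts have no baseline. Genes not called, such as Cacna1c, could be separate too. Changes of at least 4-fold were found in 133 genes that rose and 112 that fell. The median log2 change of all tested genes was -0.01, and protein-coding genes made up 790 of the increases and 485 of the decreases.

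**Figure D1:**
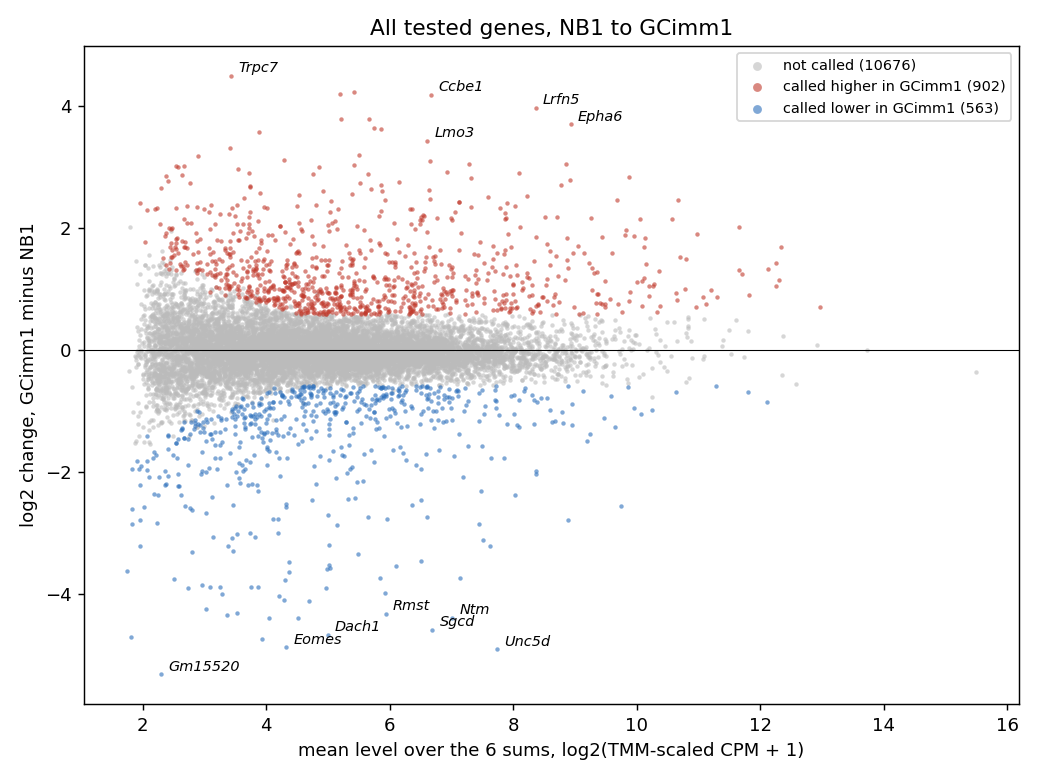
Log2 change from NB1 to GCimm1 (vertical axis, positive when higher in GCimm1) against the mean level over the 6 sums (horizontal axis, log2 of TMM-scaled CPM plus 1) for all 12141 tested genes. Red points are the 902 genes called higher and blue points the 563 called lower, and changes of more than 4 log2 units occur on both sides.

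In the following, a level is given in CPM after scaling by the trimmed mean of M values (TMM), always in the order w1, w2, w4, and a log2 change is GCimm1 minus NB1 with its standard error (SE). The largest decreases held guidance, adhesion and developmental genes. Unc5d, a netrin receptor (chromosome 8 of GRCm38, 28646717 to 29219636), was at 481, 394 and 367 in NB1 and at 4.87, 17.6 and 4.64 in GCimm1. Every GCimm1 sum lay far below every NB1 sum, with a log2 change of -4.91 ± 0.21 (adjusted p = 3.3e-10). Eomes, the T-box factor of intermediate progenitors, went from 39.6, 25.7 and 44.0 to 1.62, 0.644 and 2.65 (-4.88 ± 0.32). Dach1, a nuclear regulator of progenitors, went from 55.3, 39.1 and 85.8 to 0, 1.57 and 3.98 (-4.67 ± 0.26). Both genes were thus nearly silent in GCimm1 of every library. Sgcd, a sarcoglycan, fell from 165, 168 and 246 to 21.1, 6.17 and 6.63 (-4.58 ± 0.22). Ntm (neurotrimin), an IgLON adhesion protein, fell from 211, 217 and 304 to 19.5, 10.9 and 7.30 (-4.39 ± 0.19). The long noncoding RNA Rmst, known from neurogenic cells, fell from 129, 93.1 and 130 to 1.62, 6.08 and 1.33 (-4.33 ± 0.24). In all of these the 6 sums were separate.

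The other decreases among the 12 largest were Daam2 (-4.74 ± 0.41), a Wnt-linked formin, the latrophilin Adgrl2 (-4.40 ± 0.34), Eya4 (-4.32 ± 0.49), Tmem163 (-4.39 ± 0.32), a zinc transporter of vesicles, the noncoding Gm29260 (-4.34 ± 0.42) and Gm15520. The last lies antisense within Ntm and had 48, 31 and 4 UMIs in NB1 and 0, 2 and 0 in GCimm1, so its fitted log2 change of -5.32 is no bound. Tmem163 overlaps Mgat5 on the opposite strand. Reads of such genes are told apart if counting kept the default strand rule, but the methods name no strand setting. Left-out nuclei held 24.1% of the NB1 UMIs of Tmem163 and 42.7% of those of Gm29260, and without them the log2 changes were -3.60 and -3.61. Without w2, the deepest pair, the log2 change was -6.40 for Unc5d, -6.46 for Rmst, -6.04 for Daam2, -5.68 for Eya4, -5.05 for Tmem163, -4.17 for Eomes and -2.81 for Gm29260, all still called, and Gm15520 was no longer tested. Adgrl2 had 0 UMIs in both remaining GCimm1 sums, so that no fold is given for it.

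The largest increases held adhesion molecules, receptors and channels. Lrfn5, a synaptic adhesion protein with leucine-rich repeats (chromosome 12, 61523150 to 61858342), was at 18.9, 45.9 and 63.8 in NB1 and at 344, 714 and 785 in GCimm1, a log2 change of 3.97 ± 0.12 (adjusted p = 2.2e-11). Epha6, an ephrin receptor (chromosome 16, 59653483 to 60605531), went from 46.8, 58.8 and 106 to 504, 948 and 1258 (3.70 ± 0.13). Each gene was higher in the GCimm1 sum of every library than in any NB1 sum. Cntn6, a contactin, went from 2.19, 5.45 and 4.40 to 24.3, 122 and 91.6 (4.23 ± 0.21). Trpc7, a cation channel, was at 0.783, 0.681 and 0 in NB1 and at 14.6, 16.9 and 25.9 in GCimm1 (4.49 ± 0.43). Ackr3, a scavenging receptor for the chemokine Cxcl12, went from 1.72, 5.68 and 4.40 to 60.0, 78.6 and 63.0 (4.20 ± 0.24). These 3 genes had at most 5.68 CPM in any NB1 sum.

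Ccbe1, a secreted matrix protein, rose from 9.55, 7.49 and 11 to 81.1, 235 and 263 (4.18 ± 0.25). The sodium/calcium-potassium exchanger Slc24a4 rose from 2.35, 7.04 and 6.60 to 63.3, 71.5 and 66.3 (3.78 ± 0.25). The remaining increases among the 12 largest were Lhfp (3.79 ± 0.19), the cadherin Cdh11 (3.63 ± 0.24), Kctd8, an auxiliary subunit of GABA-B receptors (3.62 ± 0.17), the transcriptional cofactor Lmo3 (3.43 ± 0.17) and the unannotated transcript Gm37899 (3.31 ± 0.41), whose groups overlapped. Among them, the log2 change was 4.93 without w1 and 3.47 without w2 for Ccbe1, and without w2 it was 4.87 for Ackr3, 4.45 for Slc24a4 and 2.69 for Cdh11, all still called. Gm37899 was no longer tested without w2.

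**Figure D2:**
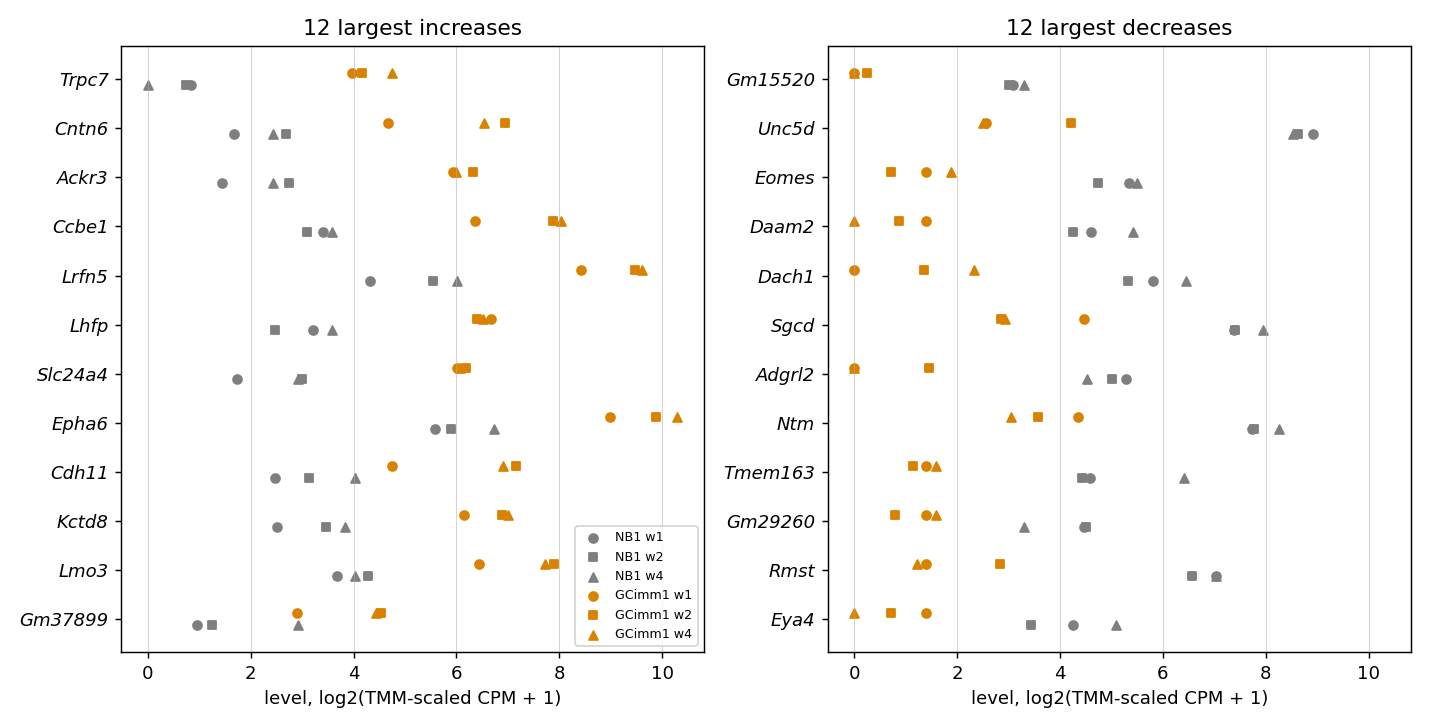
Level (horizontal axis, log2 of TMM-scaled CPM plus 1) of the 12 largest increases and 12 largest decreases in each of the 6 sums, with a marker shape for each library and a colour for each cluster. The NB1 and GCimm1 sums of each gene lie in separate groups except for Gm37899.

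Promoter sequences are shown for 4 genes with large changes that the reference table holds, chosen after their values were seen, to set down the stretch from which transcription starts. They come from RefSeq (GRCm38.p6) and run from 250 bases before to 50 bases after the start, 5′ to 3′ on the gene's strand, with motif matches on either strand in capitals. The motifs searched were the E-boxes CAGATG and CAGCTG, the SOX motif ACAAAG, the GC box GGGCGG, the TATA box TATAAA and the cAMP response element TGACGTCA. Eomes lies at chr9:118477939-118478238 (plus strand) and Dach1 at chr14:98169716-98170015 (minus strand), and both fell. Epha6 lies at chr16:60605482-60605781 (minus strand) and the noncoding Meg3, described below, at chr12:109540746-109541045 (plus strand), and both rose.
Eomes: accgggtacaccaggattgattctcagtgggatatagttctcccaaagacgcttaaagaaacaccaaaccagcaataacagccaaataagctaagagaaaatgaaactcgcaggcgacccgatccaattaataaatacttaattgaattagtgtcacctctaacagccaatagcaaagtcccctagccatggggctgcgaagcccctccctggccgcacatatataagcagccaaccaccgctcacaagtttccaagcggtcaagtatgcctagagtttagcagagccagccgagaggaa
Dach1: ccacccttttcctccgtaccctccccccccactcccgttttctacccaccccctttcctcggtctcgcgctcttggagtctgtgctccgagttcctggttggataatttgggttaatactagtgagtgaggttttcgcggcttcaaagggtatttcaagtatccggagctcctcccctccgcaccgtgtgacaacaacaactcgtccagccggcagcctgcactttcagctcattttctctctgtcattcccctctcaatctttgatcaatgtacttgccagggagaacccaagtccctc
Epha6: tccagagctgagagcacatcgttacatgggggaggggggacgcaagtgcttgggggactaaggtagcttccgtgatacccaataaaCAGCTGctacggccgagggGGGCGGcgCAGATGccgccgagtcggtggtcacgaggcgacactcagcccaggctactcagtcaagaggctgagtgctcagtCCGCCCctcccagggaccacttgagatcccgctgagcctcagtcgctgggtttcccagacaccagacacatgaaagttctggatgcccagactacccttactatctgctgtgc
Meg3: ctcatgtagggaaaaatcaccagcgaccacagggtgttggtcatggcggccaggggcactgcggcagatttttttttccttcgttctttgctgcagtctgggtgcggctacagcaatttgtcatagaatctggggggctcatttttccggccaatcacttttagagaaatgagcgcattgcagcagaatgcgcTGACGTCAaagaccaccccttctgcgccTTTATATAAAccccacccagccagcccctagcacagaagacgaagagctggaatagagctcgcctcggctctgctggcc
The windows of Eomes and Dach1 held 0 matches. Epha6 had both E-boxes and 2 GC boxes, and Meg3 had a cAMP response element and 2 TATA boxes, on opposite strands and overlapping. Of 8824 tested genes with a promoter in the table, CAGATG was found in 10.7%, CAGCTG in 14.5%, ACAAAG in 13.3%, GGGCGG in 65.3%, TATAAA in 6.13% and TGACGTCA in 3.51%. Over all 32851 promoters of the table these shares were 17.2, 16.3, 18.7, 35.7, 13.6 and 1.79%. Among the 615 called-higher genes with a promoter the shares were, in the same order, 13.2, 18.7, 11.1, 59.0, 7.97 and 1.63%, and among the 395 called-lower genes 14.7, 18.5, 19.2, 63.3, 8.61 and 3.8%. These matches are descriptions of letters in a window and do not mark binding.

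Receptors for glutamate and GABA included large increases. Of 17 tested ionotropic glutamate receptor subunits 9 rose and 1 fell (median log2 change 0.79). The NMDA receptor subunit gene Grin2a was at 84.8, 125 and 123 in NB1 and at 428, 440 and 448 in GCimm1 (2.01 ± 0.12, adjusted p = 6.2e-09). The kainate subunit gene Grik3 (2.05 ± 0.26), the NMDA subunit gene Grin3a (2.27 ± 0.28) and the AMPA subunit gene Gria3 (1.61 ± 0.17) also rose, while Grin3b (-1.34 ± 0.41) fell. Grik3 had a log2 change of 2.92 without w2, and Grin3b lost its call without w4 (-1.10, adjusted p = 0.092) and with DESeq2 (adjusted p = 0.27) and was not tested without w2. Of 6 metabotropic glutamate receptors 4 rose and 1 fell. Grm5, which couples to calcium release, went from 381, 389 and 328 to 1190, 1568 and 1607 (1.96 ± 0.12), with every GCimm1 sum above every NB1 sum. Grm3, which couples to inhibitory G proteins, fell from 42.1, 31.6 and 19.8 to 14.6, 18.0 and 11.3 (-0.93 ± 0.19), and was not called by DESeq2 (adjusted p = 0.065).

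Of 13 GABA receptor subunits 6 rose and 0 fell (median 0.77). The GABA-B subunit gene Gabbr2 was at 87.0, 89.9 and 81.4 in NB1 and at 465, 530 and 526 in GCimm1 (2.53 ± 0.10), and Gabra5, of extrasynaptic GABA-A receptors, went from 30.7, 51.8 and 46.2 to 131, 247 and 289 (2.27 ± 0.12). Gabrg3 (2.15 ± 0.12) and Gabrb1 (1.86 ± 0.20) rose with them. Of 13 partners of AMPA and kainate receptors 3 rose and 0 fell, with Cacng4 at 1.13 ± 0.16. Of 11 other transmitter receptors 4 rose and 0 fell, led by the glycine receptor subunit gene Glra2 (2.16 ± 0.12), then Chrm1 (1.92 ± 0.35, with overlapping groups), Chrna7 (1.25 ± 0.13) and Htr4 (1.01 ± 0.20). Without w2, Chrm1 (0.87, adjusted p = 0.47) and Htr4 (1.00, adjusted p = 0.12) lost their calls.

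The chloride extruder gene Slc12a5 (KCC2), whose product makes GABA hyperpolarizing, had low levels of 2.97, 4.77 and 11 in NB1 and of 11.4, 24.9 and 26.5 in GCimm1. It rose by 2.12 ± 0.29 log2 units (adjusted p = 5.4e-05), and without w2 the change was 1.61 and not called (adjusted p = 0.071). The chloride importer gene Slc12a2 (NKCC1) was at 82.3, 76.8 and 72.6 and then at 69.7, 48.6 and 52.4, and its change of -0.52 ± 0.13 fell short of the fold required. The vesicular glutamate transporter gene Slc17a6 fell by 0.63 ± 0.13, a call lost without w4 (-0.49, adjusted p = 0.029, under the fold required). Slc17a7, the transporter of mature granule cells, was at 9.86, 15.2 and 24.2 and at 6.49, 15.7 and 31.2, so its groups overlapped. Gad1, which makes GABA, rose from 35.1, 45.2 and 46.2 to 71.4, 89.7 and 111 (1.04 ± 0.13). The 38 left-out NB1 nuclei held 16.2% of the Gad1 UMIs of NB1, and without them its log2 change was 1.21.

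Sodium and calcium channel genes rose where they were called. Of 14 sodium channel genes and partners 8 rose and 0 fell (median 0.82). Fgf14, which binds sodium channels at the axon initial segment, went from 486, 451 and 497 to 1685, 3105 and 3493 (2.45 ± 0.16), and the leak channel gene Nalcn from 94.2, 96.7 and 81.4 to 256, 313 and 379 (1.71 ± 0.12). Scn1a rose by 1.11 ± 0.15, and Scn9a, with 3.44, 3.18 and 0 in NB1 and 6.49, 19.1 and 27.2 in GCimm1, by 2.33 ± 0.39, which was not tested without w2. Of 13 voltage-gated calcium channel subunits 7 rose and 0 fell. Cacna1e, an R-type pore, rose from 206, 159 and 172 to 386, 574 and 807 (1.62 ± 0.17), and the T-type genes Cacna1h (1.22 ± 0.19) and Cacna1g (1.04 ± 0.15) also rose. Cacna1h lost its call without w2 (0.91, adjusted p = 0.13).

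Potassium and HCN channel subunits went both ways, with 19 of 48 higher and 7 lower (median 0.52). Kcnj6, a G-protein-gated channel, rose from 24.6, 27.7 and 35.2 to 43.8, 172 and 246 (2.20 ± 0.23), and Kcna4 from 2.66, 2.50 and 2.20 to 4.87, 16.3 and 15.9 (2.26 ± 0.38), the latter not tested without w2. Kcnc2, of fast-spiking neurons, rose by 2.03 ± 0.18 in all nuclei. The left-out NB1 nuclei held 40.8% of its NB1 UMIs, and without them it rose by 2.82. The A-type channel genes split, as Kcnd2 rose from 247, 289 and 282 to 589, 867 and 1126 (1.59 ± 0.12) and Kcnd3 fell from 310, 228 and 266 to 105, 73.8 and 93.5 (-1.58 ± 0.10). Their partners Kcnip3 (30.1, 25.9 and 50.6, then 1.62, 1.93 and 7.30, -3.48 ± 0.27) and Kcnip4 (171, 347 and 383, then 63.3, 78.8 and 147, -1.77 ± 0.14) fell. Without the left-out nuclei, which held 26.9% of its NB1 UMIs, Kcnip4 had a log2 change of -1.37. The small-conductance channel gene Kcnn3 fell by 1.40 ± 0.24 on the log2 scale, a call lost without w2 (-1.36, adjusted p = 0.065).

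Of 25 genes of calcium stores, pumps and exchangers 9 rose and 2 fell (median 0.20). The ryanodine receptor genes Ryr2 (37.4, 48.1 and 41.8, then 138, 321 and 248, 2.43 ± 0.15) and Ryr3 (75.1, 80.6 and 63.8, then 422, 382 and 410, 2.41 ± 0.11) rose, as did Slc24a3 (2.51 ± 0.11). Itpr1, an IP3 receptor gene, rose by 0.76 ± 0.10, while Itpr2 fell from 6.42, 6.81 and 13.2 to 0, 1.84 and 1.33 (-2.23 ± 0.46), and was not tested without w2. Of 25 calcium-linked kinases, phosphatases and phospholipases C 7 rose and 4 fell, with Camk4 (72.5, 86.8 and 57.2, then 240, 422 and 517, 2.24 ± 0.16) and Camkv (1.58 ± 0.18) up and Plcb4 (-1.17 ± 0.19), Camk1d (-0.96 ± 0.16) and Plcb1 (-0.96 ± 0.10) down. Of 36 genes of cyclic nucleotide signalling 7 rose and 2 fell, the latter near the 4.64% of all genes. Called members included the cGMP kinase gene Prkg1 (1.88 ± 0.14), the cAMP sensor gene Rapgef4 (1.32 ± 0.15) and the phosphodiesterase genes Pde7b (-2.77 ± 0.27) and Pde4d (-1.23 ± 0.12). Of 9 RGS genes, whose products shorten G-protein signals, 5 rose and 2 fell. Rgs6 was nearly the same in all libraries of a cluster, at 567, 554 and 556 in NB1 and at 2477, 2526 and 2459 in GCimm1 (2.15 ± 0.09), and Rgs20 fell from 173, 149 and 110 to 56.8, 41.0 and 43.1 (-1.70 ± 0.13).

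Among synaptic genes more rose than fell, and most did not pass the test. Of 64 genes of the presynaptic release machinery 19 rose, 3 fell and 42 were not called (median 0.27). The decreases were near the 4.64% of all genes, while 7.43% of all genes rose. Sv2b, a vesicle protein, rose from 5.79, 6.36 and 2.20 to 9.73, 47.6 and 60.4 (2.54 ± 0.31), its paralogue Sv2c fell from 20.2, 10.9 and 26.4 to 0, 1.47 and 1.33 (-3.30 ± 0.40), and without w2 the change of Sv2c was -4.68. Syt1, the calcium sensor of release, rose from 639, 636 and 666 to 1426, 1265 and 1551 (1.12 ± 0.09), and Syn2, which tethers vesicles, fell from 427, 353 and 381 to 127, 156 and 194 (-1.27 ± 0.12). Of 35 postsynaptic scaffold genes 11 rose and 3 fell (median 0.41), with Dlgap2 (2.07 ± 0.19), Dlg2 (422, 432 and 537, then 933, 1895 and 2514, 1.83 ± 0.16) and Dlgap1 (1.49 ± 0.10) up. Frmpd4, a scaffold on the X chromosome that binds metabotropic receptor complexes, fell from 108, 156 and 240 to 6.49, 16.5 and 15.3 (-3.46 ± 0.16).

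Adhesion molecules changed in both directions. Of 48 synaptic adhesion genes 14 rose and 5 fell (median 0.21). Besides Lrfn5, Lrfn2 (2.27 ± 0.16) and the teneurin gene Tenm2 (2.01 ± 0.17) rose, and Flrt2, a ligand of latrophilins and Unc5 receptors, fell from 19.6, 12 and 19.8 to 0, 1.01 and 0 (-4.0 ± 0.46), and without w2 both GCimm1 sums held 0 UMIs, so that no fold is given. Of 20 cadherins and protocadherins 9 rose and 4 fell (median 0.54). Cdh8 went from 249, 274 and 205 to 1289, 1290 and 1579 (2.46 ± 0.12), Cdh12 from 10.2, 18.8 and 19.8 to 34.1, 113 and 162 (2.46 ± 0.18), and Cdh20 from 37.9, 28.4 and 74.8 to 4.87, 1.84 and 1.33 (-4.12 ± 0.30). Cdh13 fell by 1.49 on the log2 scale, but not past the test without the left-out nuclei (-1.0, adjusted p = 0.12) or without w4 (-1.04, adjusted p = 0.14), and it was not tested without w2. Of 33 immunoglobulin adhesion molecules and contactins 18 rose and 5 fell (median 0.72). Ncam2 rose from 82.2, 83.3 and 132 to 514, 874 and 1094 (3.04 ± 0.13), Cntn1 from 21.3, 19.8 and 46.2 to 79.5, 241 and 315 (2.92 ± 0.22) and Cntn4 from 14.9, 17.3 and 22.0 to 84.3, 129 and 151 (2.75 ± 0.15). Cntn5 fell from 545, 417 and 363 to 112, 161 and 336 (-1.22 ± 0.23), with a change of only -0.11 in w4, and was not called by DESeq2 (adjusted p = 0.26). Sdk2 fell by 1.19 on the log2 scale, but its change was -0.47 (adjusted p = 0.318) without the left-out nuclei, which held 56.0% of its NB1 UMIs. Without w2 the log2 change of Cntn1 was 2.26.

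Guidance genes moved in both directions. Of 18 genes of the Slit, Robo and netrin pathway 6 rose and 6 fell. The Slit receptor gene Robo1 rose from 220, 181 and 207 to 654, 721 and 809 (1.84 ± 0.11) and the ligand gene Slit3 from 477, 398 and 354 to 1766, 1076 and 1864 (1.87 ± 0.14), while the attractant netrin receptor gene Dcc rose by 0.70 ± 0.10 and was not called without w4 (0.57, under the fold required). Unc5d, described above, Ntn4 (16.9, 9.54 and 15.4, then 0, 0.552 and 0.663, -4.25 ± 0.47) and Ntng2 (-2.08 ± 0.13) fell, and Ntn4 had -4.96 without w2. Slit1 fell, but the left-out nuclei held 46.2% of its NB1 UMIs, it was not tested without them or without w2, and DESeq2 did not call it (adjusted p = 0.19). Of 25 semaphorins, neuropilins and plexins 7 rose and 2 fell, with the neuropilin genes Nrp1 (620, 499 and 431, then 1680, 1444 and 1980, 1.69 ± 0.13) and Nrp2 (1.20 ± 0.11) up and Sema5b (-1.28 ± 0.14) down. Of 18 Eph receptors and ephrins 6 rose, Epha6 and Epha7 (1.58 ± 0.10) among them, and 1 fell, near the 4.64% of all genes.

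Growth factor receptors and their ligands rose and fell, and Wnt and Notch genes fell with 1 exception among those called. Of 26 neuregulin, neurotrophin and growth factor receptor genes 11 rose and 4 fell (median 0.35). Ntf3, the ligand neurotrophin-3, rose from 12.8, 10.4 and 13.2 to 37.3, 89.3 and 83.6 (2.56 ± 0.23, 1.90 without w2), and the sorting receptor gene Sorcs2 rose by 1.77 ± 0.12. The neuregulin receptor gene Erbb4, at 40.1, 45.4 and 6.60 in NB1 and 1.62, 5.06 and 5.31 in GCimm1, fell by 3.00 ± 0.30 on the log2 scale in all nuclei. Without the left-out nuclei its change was -0.74 (adjusted p = 0.21), and without w2 it was not tested. Of 25 Wnt and Notch genes 1 rose and 6 fell (median -0.11). The Wnt effectors Lef1 (32.9, 18.6 and 19.8, then 1.62, 1.38 and 0.663, -3.89 ± 0.32) and Tcf7l2 (78.9, 91.7 and 57.2, then 21.1, 7.09 and 6.63, -3.35 ± 0.23) and the receptor gene Notch1 (-1.98 ± 0.41) fell, each still called without w2 at -4.55, -2.42 and -2.72.

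Transcription factors moved in both directions. Of 14 early neurogenic factors 0 rose, 5 fell and 9 were not called (median -0.66). Besides Eomes these were Pax6 (18.2, 21.1 and 8.80, then 6.49, 7.18 and 3.98, -1.51 ± 0.26), the cell cycle factor gene E2f1 (-1.5 ± 0.26), Sox4 (276, 239 and 381, then 156, 142 and 108, -1.06 ± 0.15) and Myt1 (-0.62 ± 0.10). Without w2 Pax6 lost its call (-1.34, adjusted p = 0.18), as it did with DESeq2 (adjusted p = 0.055), and E2f1 had -2.54. Of 38 granule cell and neuronal factors 5 rose and 12 fell. Bcl11b, of maturing granule cells, rose from 68.1, 84.7 and 85.8 to 211, 222 and 314 (1.57 ± 0.11) and Neurod2 from 77.3, 84.7 and 90.2 to 187, 147 and 167 (0.97 ± 0.12). The orphan receptor gene Rora (492, 347 and 473, then 82.7, 74.9 and 83.6, -2.38 ± 0.11) and the remodeller gene Chd7 (293, 253 and 326, then 92.5, 49.8 and 44.4, -2.31 ± 0.15) fell. Of 26 factors of later stages 3 rose and 4 fell. The mineralocorticoid receptor gene Nr3c2 rose from 399, 357 and 400 to 1035, 1166 and 1273 (1.58 ± 0.10), while the glucocorticoid receptor gene Nr3c1 fell from 17.2, 16.6 and 28.6 to 11.4, 6.35 and 7.30 (-1.36 ± 0.27), a call lost without w2 (-1.30, adjusted p = 0.12). Creb5 fell by 3.08 ± 0.43 on the log2 scale.

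RNA-binding proteins included a fall of Elavl4 and Elavl2. Of 36 RNA-binding and splicing regulators 3 rose, near the 7.43% of all genes, and 5 fell, against 4.64% of all genes (median -0.03). Elavl4, which stabilizes neuronal transcripts, went from 163, 104 and 108 to 17.8, 9.21 and 5.97 (-3.54 ± 0.16), Elavl2 from 560, 420 and 607 to 159, 114 and 107 (-2.04 ± 0.12) and Ptbp3 from 49.8, 49.96 and 99.0 to 11.4, 9.76 and 13.9 (-2.44 ± 0.18). Rbfox1, a splicing regulator of mature neurons, rose from 3442, 3097 and 2989 to 7467, 5806 and 6595 (1.05 ± 0.09). Of 43 genes listed as chromatin regulators 0 rose and only Tet2 fell (-0.76 ± 0.13), both under the shares over all genes. This list leaves out the remodeller gene Chd7 and its family member Chd5. Both were called, with log2 changes of -2.31 and 1.18, so the list does not cover all chromatin regulators.

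Cell cycle genes included a fall of Cdk6, while most members were not called. Of 21 tested of 50 listed genes of cell cycle and DNA replication 0 rose, 9 fell and 12 were not called (median -0.58), with Cdk6, a G1 kinase, going from 145, 108 and 163 to 29.2, 19.3 and 21.9 (-2.55 ± 0.14). The inhibitor gene Cdkn1b fell as well, from 42.7, 37.2 and 55.0 to 17.8, 15.7 and 19.9 (-1.29 ± 0.17). Of 21 genes of cell death and survival 1 rose and 2 fell, against 7.43% and 4.64% of all genes. The anti-apoptotic Bcl2 rose (109, 96.7 and 96.8, then 240, 180 and 178, 0.98 ± 0.11), and its antagonist Bcl2l11 (13.3, 12.7 and 13.2, then 3.24, 3.31 and 3.32, -1.95 ± 0.32) and Jun fell. Without w2, Bcl2l11 (-1.99, adjusted p = 0.058) and Jun (-0.49, adjusted p = 0.61) lost their calls, and DESeq2 did not call Jun (adjusted p = 0.41). Of 10 activity-induced and stress genes 2 rose and 4 fell. Of 61 genes of the neurite cytoskeleton and growth cone 3 rose and 3 fell, near the shares of 7.43% and 4.64% over all genes (median 0.05, with Dclk2 among the 3 at -0.59 and at -0.55, under the fold required, without the left-out nuclei), with Map1b (401, 391.75 and 442, then 678, 829 and 963, 0.99 ± 0.10) up and the small GTPase gene Rnd3 (-3.06 ± 0.41) down.

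Ribosomal and respiratory genes had no called member. Of 78 cytosolic ribosomal proteins 0 passed in either direction (median -0.09, range -0.42 to 0.32), and of 72 nuclear-encoded respiratory chain genes 0 did (median -0.11, range -0.58 to 0.26). Among metabolic genes the counts were near the 7.43% of all genes, as 2 of 27 sterol and fatty acid genes rose and 2 of 18 glycolytic genes rose, the kinase gene Pfkp by 1.14 ± 0.13 and Gpi1 by 0.71 ± 0.16. Of 30 proteoglycan, sulfation and other matrix genes 8 rose and 7 fell. Tnr (tenascin-R) rose from 231, 260 and 167 to 1098, 973 and 945 (2.17 ± 0.11), and the proteoglycan gene Vcan fell (-1.80 ± 0.18). Reln fell by 3.88 ± 0.48 on the log2 scale in all nuclei and by 1.45 (adjusted p = 0.113) without the left-out nuclei. Gpi1 lost its call without w2 (0.55, adjusted p = 0.35) and with DESeq2 (adjusted p = 0.19), and Reln was not tested without w2. Of the 30 genes that the study names for this step 23 rose and 2 fell, which is no independent evidence since they were chosen on these libraries.

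**Figure D3:**
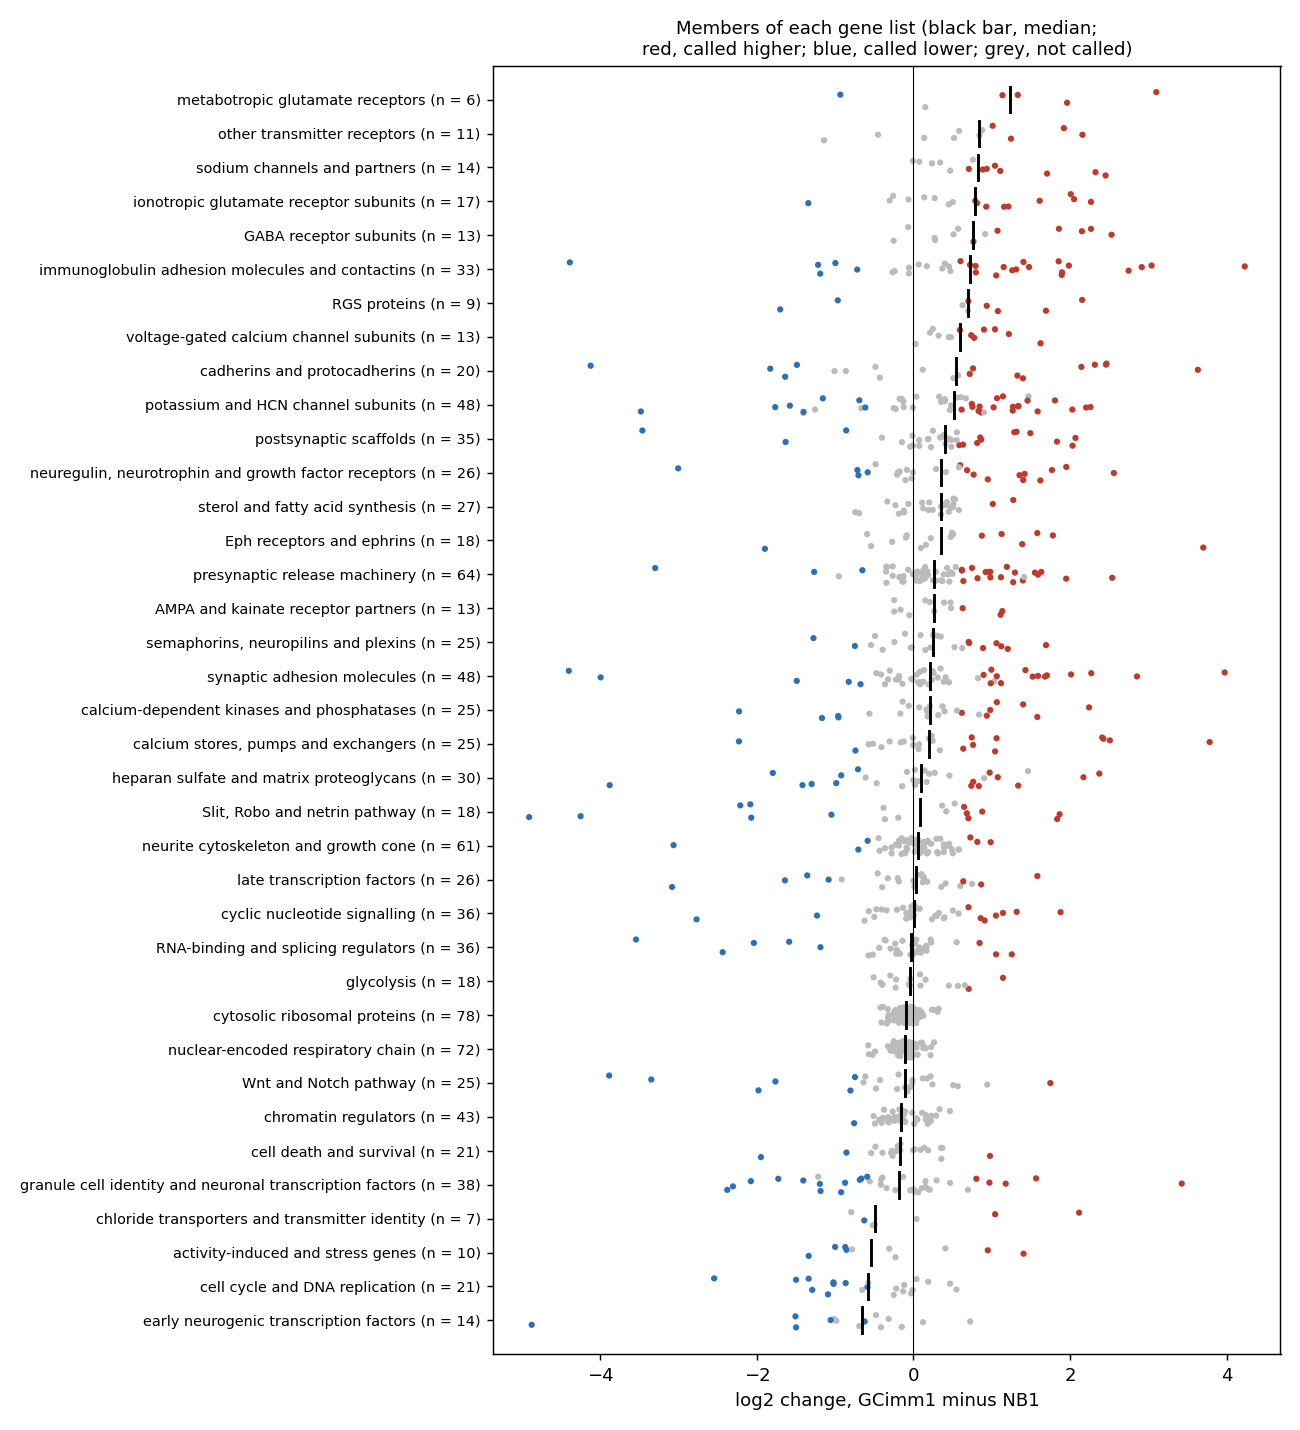
Log2 change from NB1 to GCimm1 (horizontal axis) of every tested member of 37 gene lists, ordered by the median (black bar). Red points are members called higher, blue points members called lower and grey points members not called. Medians run from 1.23 for metabotropic glutamate receptors to -0.66 for early neurogenic factors, adhesion and guidance lists reach far to both sides, and ribosomal and respiratory genes stay near 0.

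The noncoding genes of the imprinted Dlk1 to Dio3 region rose together. In chromosome 12 from 109452823 to 110281097 of GRCm38, 5 genes were tested, 5 rose and 0 fell. The region was chosen after values had been seen. Meg3, a maternally expressed long noncoding RNA, went from 49.6, 110 and 246 to 324, 1094 and 1071.4 (2.79 ± 0.17, adjusted p = 7.7e-09), and Rian, which hosts small nucleolar RNAs, from 8.45, 9.31 and 28.6 to 37.3, 108 and 102 (2.88 ± 0.24). Mirg, a host of microRNAs, went from 0.939, 3.63 and 6.60 to 14.6, 25.2 and 21.9 (2.90 ± 0.34). For Meg3, Rian and Mirg every GCimm1 sum was above every NB1 sum. Gm37899 (3.31) and Gm26906 (3.00 ± 0.47) were the others. Gm26906 overlaps Meg3 on the opposite strand, so their reads are told apart only if counting kept the default strand rule.

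Members of the same family were compared along the authors' clusters from NPC over NB1 and NB2 to GCimm1, GCimm2, GCyoung and GCmat1, as mean levels over libraries with TMM scaling over 29 sums, w8 included. GCyoung rests on 2 libraries and the others on 3 that are not the same in each cluster, so cluster and week cannot be told apart in the later clusters. These families were chosen after values had been seen, and no test was made across these clusters. Among the IgLON genes Ntm had 814, 229, 353, 11.9, 14.4, 38.6 and 44.5, whereas Opcml had 468.5, 781, 435.6, 3037, 4224, 3392 and 3248. Ntm thus had the lowest of these 7 mean levels in GCimm1, where Opcml was above its level in NB1. Sv2b peaked in GCimm2 (4.57 in NB1, 37.4 in GCimm1, 102 in GCimm2 and 1.11 in GCmat1), and Sv2c took the inverse course, with 172 in NPC, 0.894 in GCimm1 and 82.0 in GCmat1. Nr3c1 stood at 64.4 in NPC, 7.92 in GCimm1, 7.37 in GCimm2 and 108 in GCmat1, while Nr3c2 had 63.8, 1102, 1777 and 2062 in the same clusters. Unc5d went from 393 in NB1 to 945.5 in NB2, 8.69 in GCimm1 and 4.64 in GCimm2 and stood at 267 in GCmat1. Robo1 had 191.5, 259, 693 and 949 in the first 4 of these and 225 in GCmat1. The latrophilin genes differed as well, since Adgrl2 had 28.8 in NB1 and 0.567 in GCimm1 and Adgrl3 295 and 840.5.

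**Figure D4:**
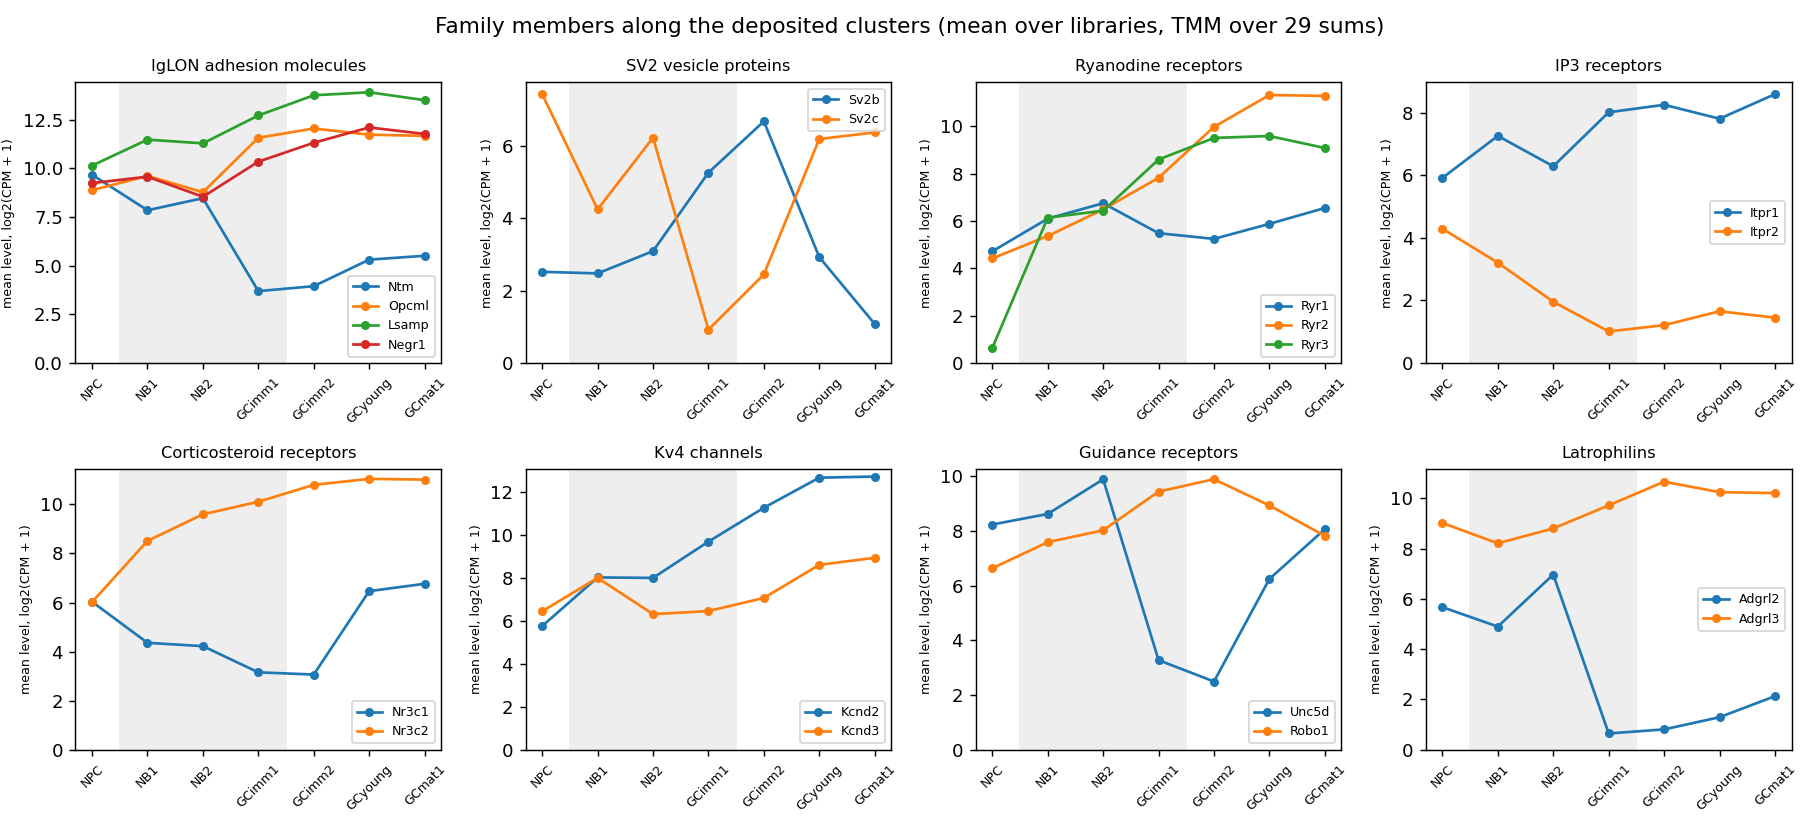
Mean level (vertical axis, log2 of TMM-scaled CPM plus 1, mean over libraries) of family members in 7 clusters along the trajectory (horizontal axis, NPC to GCmat1), in 8 panels with a line for each gene. The shaded band holds NB1, NB2 and GCimm1. Ntm, Sv2c, Adgrl2, Nr3c1 and Unc5d are at or near their lowest in GCimm1, while Opcml, Sv2b, Adgrl3, Nr3c2 and Robo1 are above their NB1 level there.

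The same transcripts were followed along the pseudo-time of the authors, in 8 bins over the nuclei of both clusters (CPM, not TMM-scaled). The median pseudo-time was 13.0 in NB1 and 16.9 in GCimm1, bins 1 to 4 held almost only NB1 nuclei, and bin 5 was mixed. Pseudo-time was computed from the same expression values, so the course is a description. Unc5d in w2 was at 1820, 162, 22.2, 18.2, 25.3, 9.87, 25.9 and 11.6 in bins 1 to 8. Its decline lay within NB1, before the boundary with GCimm1, and the same was seen in w1 (1720, 81.5, 30.9 and 9.58 in bins 1 to 4) and in w4 from bin 1 (995) to bin 3 (59.4), although bin 4 of w4, with 23 nuclei, was at 140. Elavl4 in w2 was at 442, 55.6, 19.8 and 11.9 in bins 1 to 4, and Eomes at 91.5, 25.0, 11.7 and 2.38. Both had thus lost most of their level within NB1. Epha6 in w2 was at 15.3, 19.3, 44.3, 109, 362, 697, 1000.0 and 1350 in bins 1 to 8, and Cntn6 at 1.17, 2.27, 3.5, 11.1, 26.7, 49.0, 113 and 227. The level of these genes still increased within GCimm1.

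For each gene the midpoint was taken between its levels in bin 1 and bin 8. In w2 the 12 largest increases first passed it in bins 6 to 8 on the CPM scale. On the scale log2(CPM + 1) they did so in bins 5 to 7. The 12 largest decreases first passed it in bins 2 to 5 on both scales. In w4 the same ranges were 3 to 8 and 2 to 8 for increases and 2 to 4 and 2 to 5 for decreases. Bins 1 to 5 of w4 held only 23 to 39 nuclei, and some first crossings there did not last. In bins 1 to 3 of w4 Gm15520 was at 7.43, 0 and 25.4 CPM and Slc24a4 at 0, 17.4 and 0. The w4 ranges are thus no firm repeat of those in w2. Over all called genes with at least 500 UMIs in w2 the order depended on the scale. On the CPM scale 40.2% of 527 increases and 68.0% of 206 decreases had passed the midpoint in bins 1 to 4, and on the log2 scale 63.6% and 51.9%. No order of losses and gains is drawn from the called genes as a whole.

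**Figure D5:**
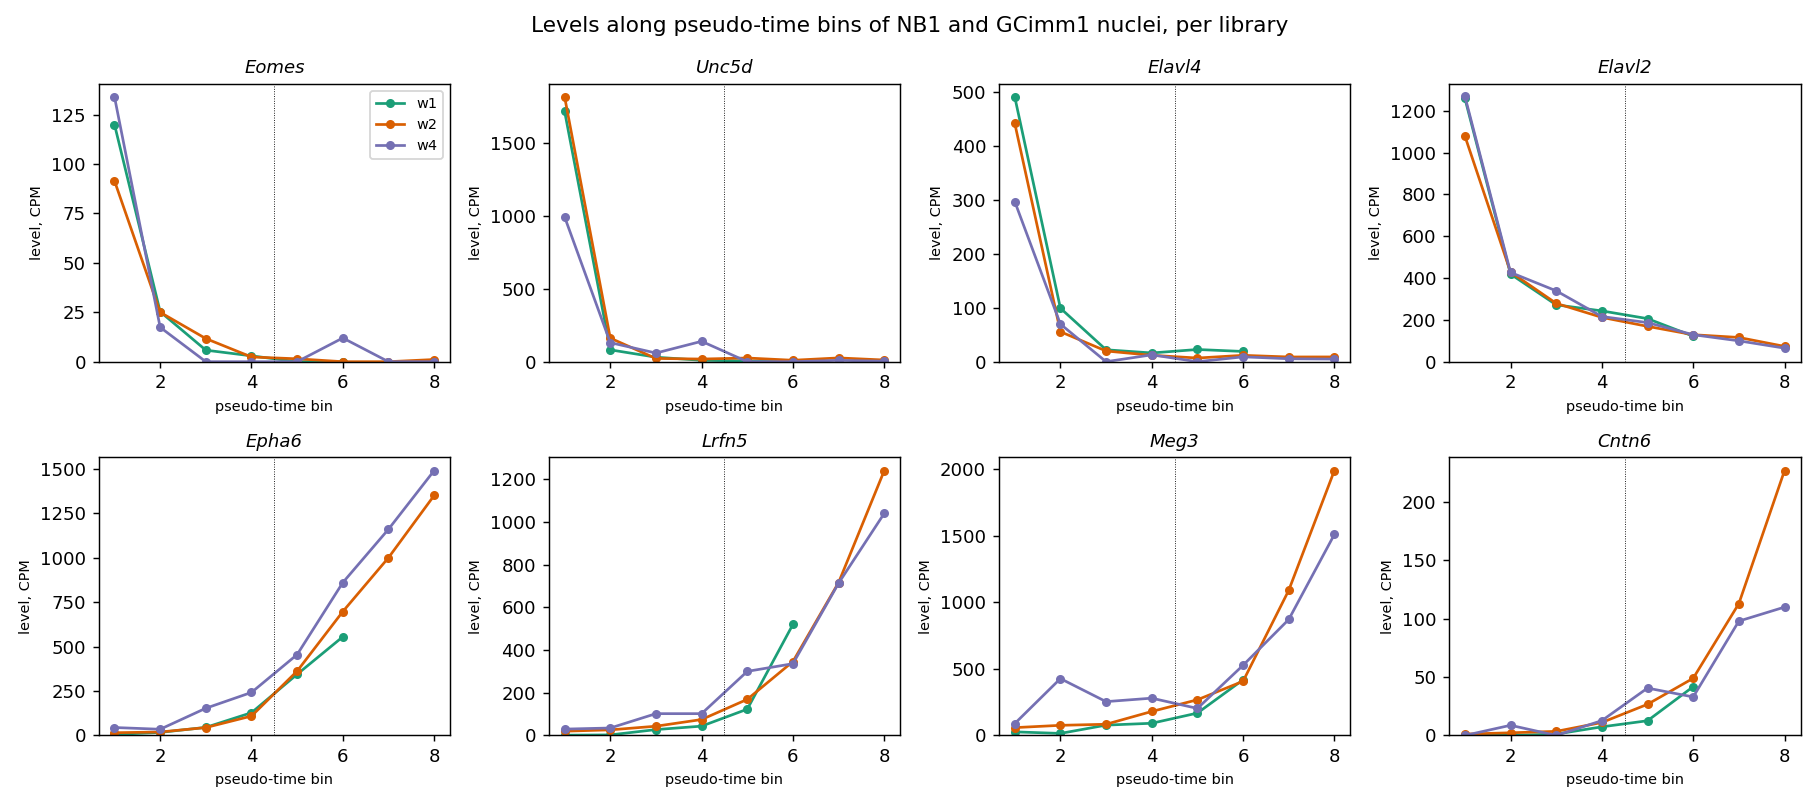
Level (vertical axis, CPM) of 8 genes in 8 bins of pseudo-time (horizontal axis) in w1, w2 and w4 (colours), with a dotted line between bins 4 and 5. Bins with fewer than 20 nuclei are left out. Unc5d, Eomes, Elavl4 and Elavl2 fall most between bins 1 and 2, and Epha6, Lrfn5, Meg3 and Cntn6 are highest in the last bin with data of each library.

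The called genes were followed in later clusters by their mean levels, which do not all rest on the same libraries and weeks. The share of all genes that moved the same way was not taken, so these counts have no baseline. Of 899 called-higher genes with levels in the wider fit, 697 had a mean in GCimm2 beyond that in GCimm1, and 19 were at or below their NB1 level there. In GCmat1 189 of the 899 were at or below their NB1 level. Cntn6 was among these, with 3.78 in NB1, 75.9 in GCimm1, 220 in GCimm2, 34.9 in GCyoung and 2.33 in GCmat1. Of 556 called-lower genes 397 were lower still in GCimm2, and 92 were at or above their NB1 level in GCmat1. Kcnip4 stood at 282 in NB1, 91.4 in GCimm1, 1054 in GCimm2, 11220 in GCyoung and 14650 in GCmat1.

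Called genes spanned longer stretches of the genome than others. The median span was 96046 bases for 898 called-higher genes with a GENCODE match, 73887 for 560 called-lower genes and 24941 for genes not called. When the genes were cut into 4 equal groups by span, 17.6% of the longest group were called higher and 9.56% lower, against 2.81% and 2.41% of the shortest. Median UMIs per gene in these groups were 2087 and 298, so length and depth moved together, and their part in the results was not tested.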

How the data were processed

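Sorted nuclei of 4 pooled mice per time point were sequenced by the authors as 3′ single-nucleus libraries (10x Genomics, with UMIs), aligned with STARsolo 2.7.4a to mm10, with reads in exons and introns counted and multi-mapping reads left out. The methods state default counting parameters, which in STARsolo keep reads on the strand of the gene, but name no strand setting. The deposited counts are raw UMIs per gene and nucleus. The deposited log2 values were made by the authors, who divided UMI counts by scran size factors and took log2 with 1 added, after removing low-quality nuclei, doublets and, in w4, nuclei mostly of male expression, and the deposited table also gives their cluster and pseudo-time for each nucleus. These clusters were taken as given, and doublets were not called again.

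For each library, the UMI counts of the nuclei of a cluster were added up where it held at least 10 nuclei. The 6 sums of NB1 and GCimm1 were fitted with edgeR 4.0.16 (R 4.3.3) by TMM, filterByExpr and the quasi-likelihood test with library and cluster as terms. The library is the pair, since both clusters come from the same pool of animals. The residual degrees of freedom were 2 and the common dispersion 0.00797. The SE is the absolute log2 change divided by the square root of the F statistic. DESeq2 1.42.0 and limma 3.58.1 served as alternatives. The log2 values were used only for an alternative on their mean per cluster. Total depth differed widely between sums, with NB1 of w4 and GCimm1 of w1 the shallowest. With each cluster taken from the authors' groups, no test was made between weeks or along pseudo-time. Pseudo-time bins needed 20 nuclei.

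Named are the 12 largest changes in each direction among called genes with 1 sign in 3 libraries and at least 50 UMIs, up to 4 called genes per list and direction, members of short lists whose role is described, genes the study names for the step, and markers. The members and lists were chosen with earlier results of these data known. Coordinates are of GRCm38 (GENCODE) and promoters of GRCm38.p6 (RefSeq), the first listed start where a gene has several. Some items are not reported here.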

Additional observations from a re-analysis of the deposited data

How the results depend on the processing

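The 902 increases and 563 decreases became 903 and 552 with RLE size factors, 1060 and 581 with no filter on low counts, 815 and 500 without the library term (no replicate block), 1049 and 642 with all 29 sums in a single fit, 761 and 436 after thinning nuclei to 2000 UMIs, 1077 and 761 with the nuclei of each cluster farthest from the other in pseudo-time, and 872 and 439 with nuclei richer in Xist and Tsix UMIs (w2 and w4). Chosen after seeing the data, leaving out the Meis2 or Reln nuclei gave 920 and 547, and taking w1 from Y-richer nuclei gave 859 and 498. Beyond 1.5 times fell DESeq2 (566 and 338), a fold of at least 2 (536 and 340), glmTreat against 1.5-fold (462 and 267), limma on the mean log2 expression per nucleus (44 and 5) and Y-richer nuclei in all libraries (560 and 322, from 9152 tested genes). Leaving out each library in turn gave 485 to 1053 increases and 324 to 562 decreases, both lowest without w2, where 10030 genes were tested. In DESeq2 562 of the 902 and 335 of the 563 genes were also called, and all kept their direction. With the mean log2 values 41 of 782 and 4 of 485 were also called, all in the same direction, and the cause was not tested. No named gene reversed under any of these settings. Of the 226 named genes that were called, 40 lost the call with DESeq2, 45 at a fold of at least 2, 54 with glmTreat, 199 with the mean log2 values and 42 without w2, where only 266 of all 306 named genes were tested. Depth limits genes such as Grm2, Scn9a and Kcna4, which fell under the count filter without w2.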

Other observations

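Esr1, the oestrogen receptor gene, was at 1.57, 2.27 and 11 CPM (TMM-scaled) in NB1 of w1, w2 and w4 and at 19.5, 43.6 and 4.64 in GCimm1. It was called higher by edgeR (log2 change 3.57 ± 0.47 (SE), adjusted p = 4.3e-05), but its change in w4 was -1.16, and it is named here after its values were seen. Such a change of sign in at least 1 library occurred in 60 of the 1465 called genes. Adarb2, an RNA-editing family gene expressed by interneurons, had a log2 change of 0.94 over all nuclei and of 2.60 without the nuclei rich in Meis2 or Reln UMIs, which held 82.6% of its NB1 UMIs.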
